A study of Danio rerio with 18 samples.

Results

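A set of 10 genes that encode hormones of the pituitary or peptides of the hypothalamus were followed through whole-body RNAseq of zebrafish sox10 mutants and wild types. They were chosen by symbol, as gh1, prl, smtla, smtlb, pomca, tshba, cga, pmch, npy and agrp, and all 10 were among the 25581 genes listed in the tables. The mutants were homozygous for ci3020, a deletion at the start of the sox10 coding sequence, and carried the genotype label sox10-/-. The controls were labelled WT and were stage-matched wild types from related crosses, and no group received a treatment. The libraries described here come from 45 h post-fertilization (hpf), with pools of 10 to 25 wild-type or 10 to 15 mutant embryos, and from the table deposited for 4 days post-fertilization (dpf), with pools of 10 to 15 wild-type or 10 to 12 mutant larvae. Each of the 4 groups had 3 libraries, and each library was made from a pool of whole animals, so the pituitary and hypothalamus are a small share of every sample. A lower level in such a bulk sample may come from fewer cells of a type or from less RNA per cell, and these cannot be told apart.

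The pituitary sits under the brain and releases peptide and glycoprotein hormones that set growth, salt balance, pigmentation, the stress response and the activity of the thyroid and gonads. Its hormone cells arise from the cranial placode, and in fish they are contacted directly by hypothalamic axons. Neurons of the hypothalamus also make neuropeptides that act within the brain, among them the feeding peptides encoded by npy and agrp and the melanin-concentrating hormone encoded by pmch.

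Values are TPM, the abundance of a gene's transcripts relative to all transcripts of its library, corrected for transcript length and set to the same total for every library, with no record of read depth. The listed genes of a library summed to between 934603 and 953131 TPM. A set of 16 genes above 10000 TPM in any library took 11.7 to 17.2% of the listed TPM in wild types and 12.5 to 27.9% in mutants at 45 hpf, and 17.6 to 20.4% in wild types and 25.9 to 42.5% in mutants at 4 dpf. The median log2 difference of all tested genes between mutants and wild types was -0.25 at 45 hpf and -0.33 at 4 dpf, and 0.0036 and 0.035 after median-of-ratios rescaling, which aligns the libraries on their typical gene. The pigment cell gene defbl1 was listed at 39.2 to 55.8 TPM in wild types and 0 to 0.0877 TPM in mutants at 45 hpf, whereas sox10 transcript itself overlapped between the genotypes, at 9.47 to 14.0 and 6.61 to 11.2 TPM. The table deposited for 7 dpf repeats all 25896 lines of the 4 dpf table, so the stage of these values rests on the label alone.

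Among the 10 genes, the pituitary genes prl, cga and pomca had the highest means in wild types at 45 hpf, and by 4 dpf npy, agrp and pmch had passed them. This order covers the set alone. The 40 listed genes of a hypothalamic neuropeptide list, which also holds enzyme genes such as hdc, together summed to 176 to 208 TPM in 45 hpf wild types. Mean levels in 45 hpf wild types ran from prl (1.96 ± 0.298 TPM, SD, n = 3) through cga (1.54 ± 0.316), pomca (1.35 ± 0.556), agrp (0.776 ± 0.264), tshba (0.772 ± 0.382) and npy (0.633 ± 0.122) to gh1 (0.304 ± 0.0466), pmch (0.114 ± 0.124) and smtlb (0.0632 ± 0.0291), with smtla listed at 0. The ranges of neighbours in this order overlapped, except that npy lay above gh1, gh1 above pmch and smtlb above smtla in every library. In 4 dpf wild types npy led with 21.0 ± 2.33 TPM, followed by agrp (5.69 ± 1.82) and pmch (2.30 ± 0.373). Each of npy and agrp lay above the gene after it in every library, whereas pmch overlapped pomca (1.82 ± 0.221). Below them came cga (1.82 ± 0.249), tshba (1.35 ± 0.965), prl (0.439 ± 0.108), gh1 (0.433 ± 0.233) and smtlb (0.114 ± 0.0925), all overlapping their neighbours.

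Hormone genes of the pituitary were listed at low levels in these whole animals. How transcripts were summed to genes is not given in the sources used here, so whether these values hold every transcript of prl, gh1, pomca, smtla and smtlb could not be checked. The mean of prl exceeded 41.8% of all listed genes in 45 hpf wild types and 21.0% in 4 dpf wild types, and that of gh1 exceeded 21.1% and 20.9%. The mean of npy moved from above 27.9% to above 85.5% of listed genes. Of the transcription factors that mark the adenohypophyseal lineage, pou1f1 and tbx19 stayed at or below 0.362 TPM in all 12 libraries.

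**Figure D1:**
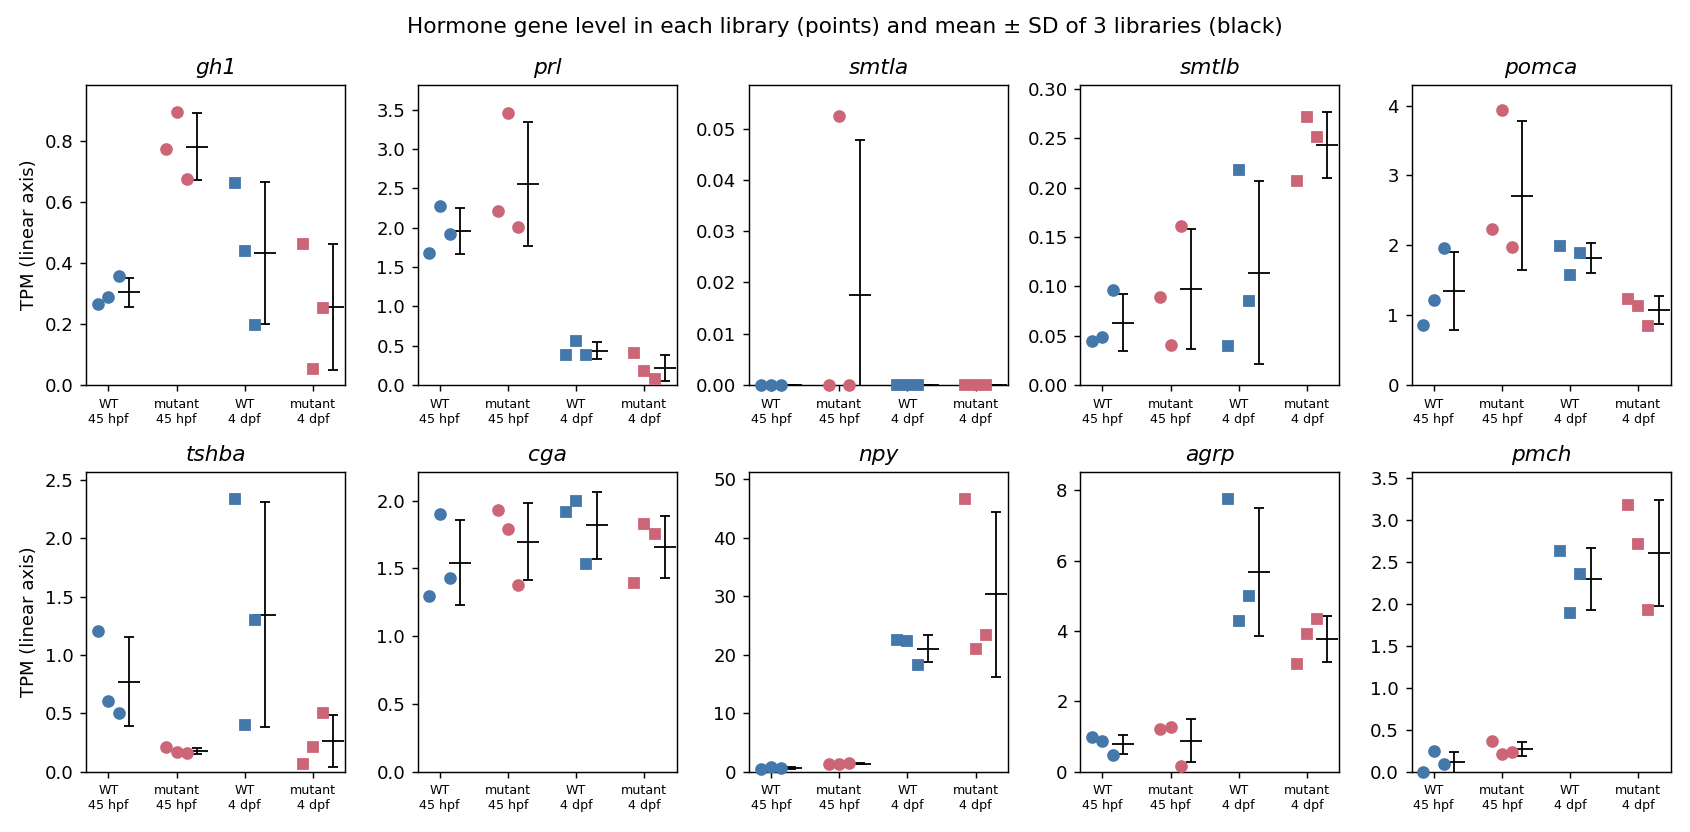
TPM of each of the 10 hormone genes (one panel each, linear axes starting at 0) in wild-type (blue) and sox10 mutant (red) libraries at 45 hpf (circles) and 4 dpf (squares). Black bars give mean ± SD of 3 libraries, cut off at 0. The mutant points of tshba lie below all wild-type points at 45 hpf, whereas those of gh1, pomca and npy lie above them.

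Growth hormone, encoded by gh1 (ENSDARG00000038185), drives body growth through receptors in liver and other tissues. At 45 hpf, gh1 was listed at 0.267, 0.289 and 0.356 TPM in wild types and at 0.773, 0.894 and 0.676 TPM in mutants. All 3 mutant libraries were above all 3 wild types, and the ratio of the means was 2.57 (exact permutation test, two-sided, P = 0.1, the smallest that 3 against 3 libraries allow). At 4 dpf the levels were 0.663, 0.439 and 0.197 TPM in wild types and 0.462, 0.0519 and 0.254 TPM in mutants, and the groups overlapped (exact permutation P = 0.5). At below 1 TPM in all 12 libraries, gh1 did not enter the test across genes. When no filter was used and 0.1 TPM was added in place of 1, limma gave a log2 difference of 1.12 ± 0.16 (SE) at 45 hpf with an adjusted P of 0.206.

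Prolactin, encoded by prl (ENSDARG00000037946), regulates salt and water balance in fish. It was listed at 1.68, 2.27 and 1.92 TPM in wild types and 2.21, 3.46 and 2.01 TPM in mutants at 45 hpf. One mutant library, replicate 2, lay above the wild-type range, and the others fell within it. At 4 dpf, prl was at 0.377, 0.564 and 0.376 TPM in wild types and at 0.405, 0.173 and 0.0708 TPM in mutants. Here 2 of 3 mutants were below all wild types, and the ratio of mutant to wild-type means was 0.493 (exact permutation P = 0.3).

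The somatolactins, encoded by smtla (ENSDARG00000038191) and smtlb (ENSDARG00000017251), are fish relatives of growth hormone made in the pars intermedia. smtla was listed at 0 in 11 of 12 libraries and at 0.0525 TPM in mutant replicate 2 at 45 hpf. smtlb was at 0.0446, 0.0483 and 0.0968 TPM in wild types and 0.0889, 0.0406 and 0.162 TPM in mutants at 45 hpf. It was at 0.0396, 0.217 and 0.0849 TPM in wild types and 0.206, 0.272 and 0.252 TPM in mutants at 4 dpf. The genotypes overlapped at both stages, and neither gene passed the filter.

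Pro-opiomelanocortin, the product of pomca (ENSDARG00000043135), is cut into adrenocorticotropin in corticotropes and into melanocyte-stimulating hormone in melanotropes. At 45 hpf, pomca was at 0.866, 1.22 and 1.96 TPM in wild types and 2.23, 3.93 and 1.97 TPM in mutants. The groups did not overlap, although the lowest mutant and the highest wild type were 1.97 and 1.96 TPM. At 4 dpf the order was the opposite, with 1.99, 1.57 and 1.90 TPM in wild types and 1.24, 1.14 and 0.851 TPM in mutants. Every mutant library was then below every wild type, with a ratio of means of 0.591.

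Thyrotropin, which stimulates the thyroid, pairs a specific beta subunit encoded by tshba (ENSDARG00000033726) with the alpha subunit encoded by cga (ENSDARG00000040479), which the gonadotropins share. At 45 hpf, tshba was at 1.21, 0.606 and 0.502 TPM in wild types and 0.208, 0.171 and 0.160 TPM in mutants. The mutants were all lower, and the wild-type mean was 4.30 times theirs (exact permutation P = 0.1). At 4 dpf, tshba was at 2.33, 0.405 and 1.30 TPM in wild types and 0.0635, 0.216 and 0.504 TPM in mutants. Mutant replicate 3 lay above wild-type replicate 2, so the groups overlapped, with means 5.15 times apart (exact permutation P = 0.2).

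The alpha subunit did not show such a gap. cga was at 1.30, 1.90 and 1.43 TPM in wild types and 1.93, 1.79 and 1.38 TPM in mutants at 45 hpf. It was at 1.92, 2.00 and 1.53 TPM in wild types and 1.40, 1.83 and 1.75 TPM in mutants at 4 dpf. The genotypes overlapped at both stages, and the ratio of mutant to wild-type means was 1.1 at 45 hpf and 0.913 at 4 dpf.

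The hypothalamic genes npy, agrp and pmch were higher at 4 dpf than at 45 hpf in every library of either genotype. Neuropeptide Y, encoded by npy (ENSDARG00000036222), promotes feeding and is also made in other brain regions and in sympathetic neurons. At 45 hpf, npy was at 0.515, 0.758 and 0.626 TPM in wild types and 1.31, 1.31 and 1.44 TPM in mutants. All mutants were above all wild types, with a ratio of means of 2.14. At 4 dpf, npy was at 22.4, 22.3 and 18.3 TPM in wild types and 46.5, 21.0 and 23.3 TPM in mutants. The groups overlapped, and the high mutant value came from replicate 1. In that library the genes above 10000 TPM took 42.5% of the listed TPM, which leaves a smaller share to all other genes. The part of this in the level of npy was not tested.

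Agouti-related peptide, encoded by agrp (ENSDARG00000069089), blocks melanocortin receptors in the hypothalamus. It was at 0.985, 0.864 and 0.479 TPM in wild types and 1.2, 1.27 and 0.174 TPM in mutants at 45 hpf. Mutant replicate 3 was below and the other mutants above the wild-type range. At 4 dpf, agrp was at 7.75, 4.30 and 5.01 TPM in wild types and 3.07, 3.91 and 4.36 TPM in mutants, and 2 of 3 mutants were below all wild types.

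Melanin-concentrating hormone lightens the skin of fish and acts in the brain, and pmch (ENSDARG00000073959) encodes its precursor. At 45 hpf, pmch was listed at 0, 0.245 and 0.0975 TPM in wild types and 0.372, 0.208 and 0.238 TPM in mutants. At 4 dpf it was at 2.64, 1.90 and 2.36 TPM in wild types and 3.19, 2.72 and 1.93 TPM in mutants. The genotypes overlapped at both stages.

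Whether loss of sox10 altered these genes was tested with limma on log2(TPM + 1), a scale that understates changes of low genes. Testing was limited to genes that reached 1 TPM in 3 or more libraries, and a call needed a Benjamini-Hochberg adjusted P no higher than 0.05 together with an absolute log2 difference of 0.32 or more. At 45 hpf, 4 of the 10 hormone genes could be tested and 0 were called, while 0.557% of the 17043 tested genes were called (0.499% lower and 0.0587% higher in mutants). Of these, npy (log2 difference 0.53 ± 0.17, SE, adjusted P = 0.155) and pomca (0.65 ± 0.25, adjusted P = 0.181) had an unadjusted P below 0.05, and prl (0.25, adjusted P = 0.463) and cga (0.087, adjusted P = 0.783) did not. npy passed the filter only through its mutant libraries. Relative to the median of all genes, the differences were 0.78 for npy and 0.90 for pomca, and rescaling gave 0.68 (adjusted P = 0.0874) and 0.85 (adjusted P = 0.117).

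The absence of calls among the hormone genes at 45 hpf changed only when a single library was left out. Without mutant replicate 1, both pomca (0.73, adjusted P = 0.0140) and npy (0.54, adjusted P = 0.0291) were called higher in mutants, but 5269 genes were then called in place of 95. Over all alternatives the adjusted P of pomca ranged from 0.0140 to 0.452 and that of npy from 0.0291 to 0.355, and the log2 difference stayed positive. By the simpler criterion of groups that do not overlap, gh1, pomca and npy were higher in mutants, where 2.13% of all listed genes were, and tshba was lower, where 19.4% were.

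At 4 dpf, 5 hormone genes were tested and again 0 were called, against 20.3% of 17291 tested genes (18.8% lower and 1.56% higher). Only pomca had an unadjusted P below 0.05 (log2 difference -0.44 ± 0.16, adjusted P = 0.0823). This value was close to the median of all genes, and after rescaling it was -0.18 (adjusted P = 0.458). The others were npy (0.42, adjusted P = 0.296), pmch (0.12, adjusted P = 0.648), cga (-0.084, adjusted P = 0.710) and agrp (-0.46, adjusted P = 0.162). After rescaling, the differences of npy (0.85, adjusted P = 0.156) and pmch (0.44, adjusted P = 0.180) were larger. Those of cga and agrp were then 0.19 and -0.098. pomca was also the sole hormone gene whose mutants all lay below the wild types, as did 36.0% of listed genes, and 0 lay above, as did 5.14%.

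**Figure D2:**
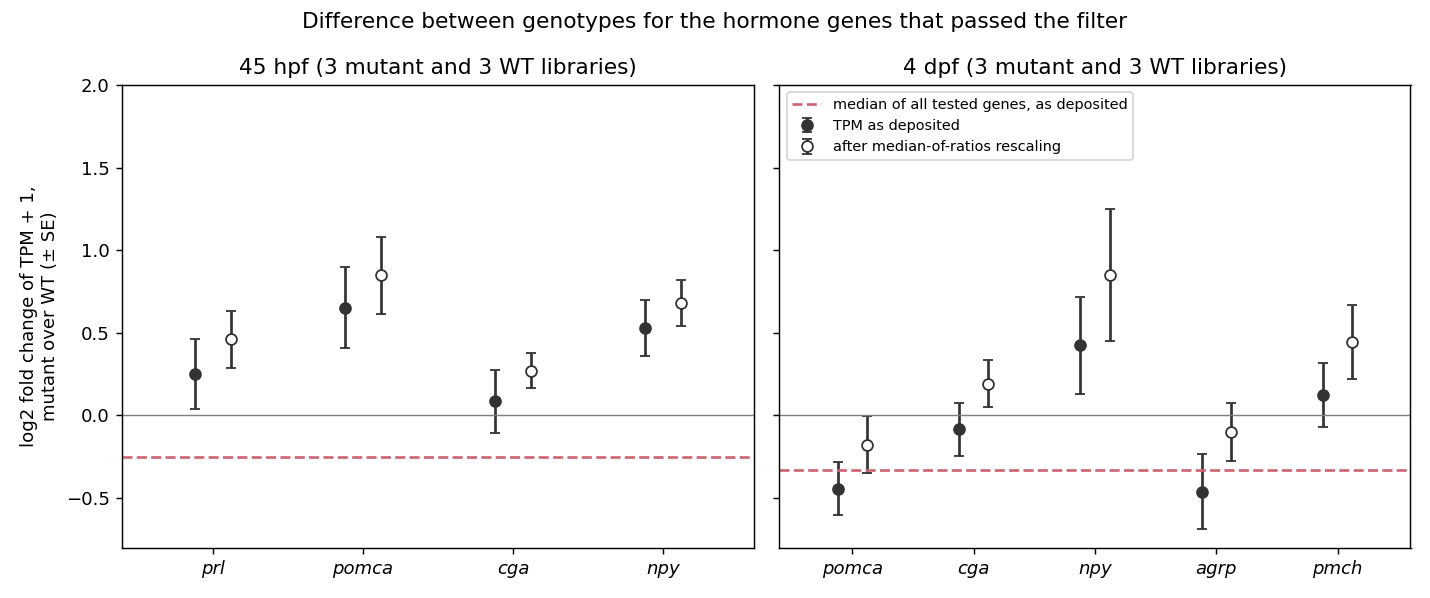
Log2 fold change of TPM + 1 between mutants and wild types (± SE, 3 libraries per genotype) for the hormone genes that passed the filter at 45 hpf (left) and 4 dpf (right). Filled points use the deposited TPM and open points the rescaled TPM, and the dashed line marks the median of all tested genes, at -0.25 and -0.33. At 4 dpf pomca and agrp lie next to that line, and no point was called at either stage.

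For tshba, which fell short of the filter in each table, the outcome depended on the fit. When all 12 libraries shared an estimate of the spread, tshba was called lower in mutants at 4 dpf (log2 difference -0.82 ± 0.27, adjusted P = 0.0340) and was not called at 45 hpf (-0.57 ± 0.27, adjusted P = 0.301). With the 6 libraries of a stage and no filter, the same differences had adjusted P values of 0.151 and 0.309. It entered the 12-library fit through 3 wild-type libraries at or above 1 TPM. That fit called 5780 of 18987 genes lower in mutants at 4 dpf, where the median of all genes was -0.33. Relative to that median tshba was at -0.49. With 0.1 TPM added and no filter, the difference of tshba was -1.93 ± 0.77 at 4 dpf (adjusted P = 0.145) and -1.56 ± 0.32 at 45 hpf (adjusted P = 0.333).

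Ratios within a library do not depend on scaling between libraries, and they are given as a description, since the pairs were chosen after the values were seen. Of 8 pairs computed, 4 did not overlap between the genotypes at one or both stages. The share over other gene pairs was not computed, so this count is not read as a result. The ratio of tshba to cga was 0.930, 0.319 and 0.352 in wild types and 0.108, 0.0955 and 0.116 in mutants at 45 hpf. At 4 dpf it was 1.22, 0.203 and 0.846 in wild types and 0.0455, 0.118 and 0.287 in mutants. The ratio was thus lower in every mutant than in every wild type at 45 hpf, and overlapped at 4 dpf through wild-type replicate 2 and mutant replicate 3. At 45 hpf tshba itself did not overlap either, whereas cga did, so the ratio there largely restates tshba.

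Within the growth hormone family, the ratio of gh1 to prl at 45 hpf was 0.159, 0.127 and 0.185 in wild types and 0.350, 0.258 and 0.336 in mutants, again without overlap, as for gh1 itself. At 4 dpf it spread from 0.525 to 1.76 in wild types and from 0.299 to 3.59 in mutants. Among the feeding peptides, npy to agrp was 2.90 to 5.18 in wild types and 5.35 to 15.2 in mutants at 4 dpf, so every mutant lay above every wild type. At 45 hpf that ratio overlapped, at 0.523 to 1.31 and 1.03 to 8.33. The ratio of prl to its paralog prl2 was lower in mutants at both stages, at 11.6 to 14.5 against 15.4 and 44.1 in the wild types with prl2 above 0 at 45 hpf, and at 0.116 to 0.306 against 0.396 to 1.73 at 4 dpf. Every library was below 1 TPM for prl2 at 45 hpf and for prl at 4 dpf, so these ratios rest on low values.

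The other 4 pairs overlapped at both stages. The ratio of pomca to cga was 0.641 to 1.37 in wild types and 1.16 to 2.20 in mutants at 45 hpf, and 0.785 to 1.24 and 0.485 to 0.887 at 4 dpf. Its means differed in the same direction as pomca itself, although the genotypes overlapped. They were 0.893 in wild types and 1.60 in mutants at 45 hpf, and 1.02 and 0.665 at 4 dpf. The remaining pairs were pomca to pomcb, npy to pmch and pmchl to pmch.

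**Figure D3:**
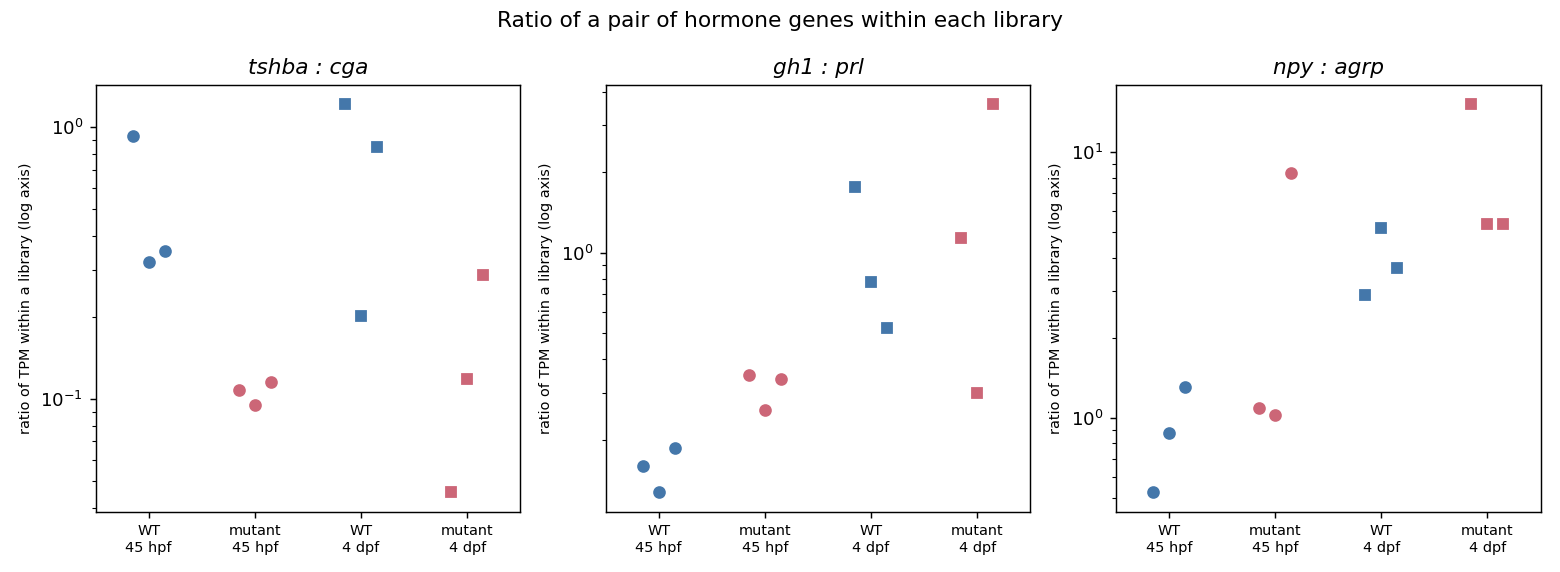
Ratio of the TPM of tshba to cga, gh1 to prl and npy to agrp within each library (log axes) for wild types (blue) and mutants (red) at 45 hpf (circles) and 4 dpf (squares). At 45 hpf the tshba to cga ratio was 0.0955 to 0.116 in mutants and 0.319 to 0.930 in wild types.

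How the hormone genes changed between the tables was tested in a fit of all 12 libraries, in which 7 of the 10 passed the filter. Stage and table cannot be told apart. In wild types npy, agrp and pmch rose and prl fell, so 4 of 7 were called, against 63.4% of the 18987 genes tested (36.6% lower and 26.8% higher at 4 dpf). In wild types agrp and pmch reached 1 TPM at 4 dpf alone, as pmch did in mutants, and prl reached it at 45 hpf alone in both genotypes, so these genes passed the filter through the stage at which they were high and their calls are no independent count. In wild types npy also reached 1 TPM at 4 dpf alone, whereas its 3 mutant libraries reached it at both stages. With no filter the differences were the same, with adjusted P values in wild types of 1.57e-06 for npy, 0.000358 for agrp, 1.46e-05 for pmch and 0.000452 for prl. The rise of npy was the largest of the 4 differences, at a log2 difference of 3.75 ± 0.24 (adjusted P = 5.06e-08) and a ratio of mean TPM of 33.2. agrp rose by 1.89 ± 0.27 (adjusted P = 5.38e-05) and pmch by 1.57 ± 0.17 (adjusted P = 4.84e-06). prl fell by 1.04 ± 0.18 on the log2 scale (adjusted P = 0.000259), and its mean at 45 hpf was 4.46 times that at 4 dpf.

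In wild types, tshba (0.34 ± 0.27, adjusted P = 0.286), cga (0.15 ± 0.16, adjusted P = 0.421) and pomca (0.29 ± 0.22, adjusted P = 0.266) were not called. Without wild-type replicate 2 of 4 dpf, tshba was called higher (0.66, adjusted P = 0.0210), within a range of adjusted P from 0.0210 to 0.898 over the alternatives. The libraries of the stages did not overlap for pmch, npy and agrp, which were higher at 4 dpf like 28.8% of listed genes, and for prl, which was lower like 33.1%.

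In sox10 mutants the same hypothalamic genes rose, npy by 3.64 ± 0.24 (adjusted P = 1.06e-07), agrp by 1.39 ± 0.27 (adjusted P = 0.000682) and pmch by 1.49 ± 0.17 (adjusted P = 9.43e-06). prl fell by 1.54 ± 0.18 (adjusted P = 1.23e-05), to a mean of 0.217 ± 0.172 TPM. pomca also fell in mutants, by 0.81 ± 0.22 (adjusted P = 0.00648), and after rescaling by 0.61 (adjusted P = 0.0249). In all, 5 of 7 were called, against 62.0% of all tested genes (40.8% lower and 21.2% higher). The median of all genes was -0.15 in wild types and -0.31 in mutants in the same comparisons, and relative to it pomca was at -0.49 in mutants.

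Stages did not overlap in mutants for gh1, prl and pomca, which were lower at 4 dpf like 32.0% of listed genes. smtlb, pmch, npy and agrp were higher without overlap, like 19.7% of listed genes. gh1 and smtlb were below the filter, but with 0.1 TPM added and no filter gh1 was called lower (-1.49 ± 0.46, adjusted P = 0.0233) and smtlb higher (0.84 ± 0.31, adjusted P = 0.0453) in mutants. The same fit gave 0.30 ± 0.46 for gh1 and 0.32 ± 0.31 for smtlb in wild types, and neither was called (adjusted P = 0.629 and 0.426). Of 25581 genes, that fit called 8025 lower and 4728 higher in mutants. Its interaction of genotype and stage was called neither for gh1 (-1.80 ± 0.66, adjusted P = 0.332) nor for smtlb (0.52 ± 0.44, adjusted P = 0.625).

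**Figure D4:**
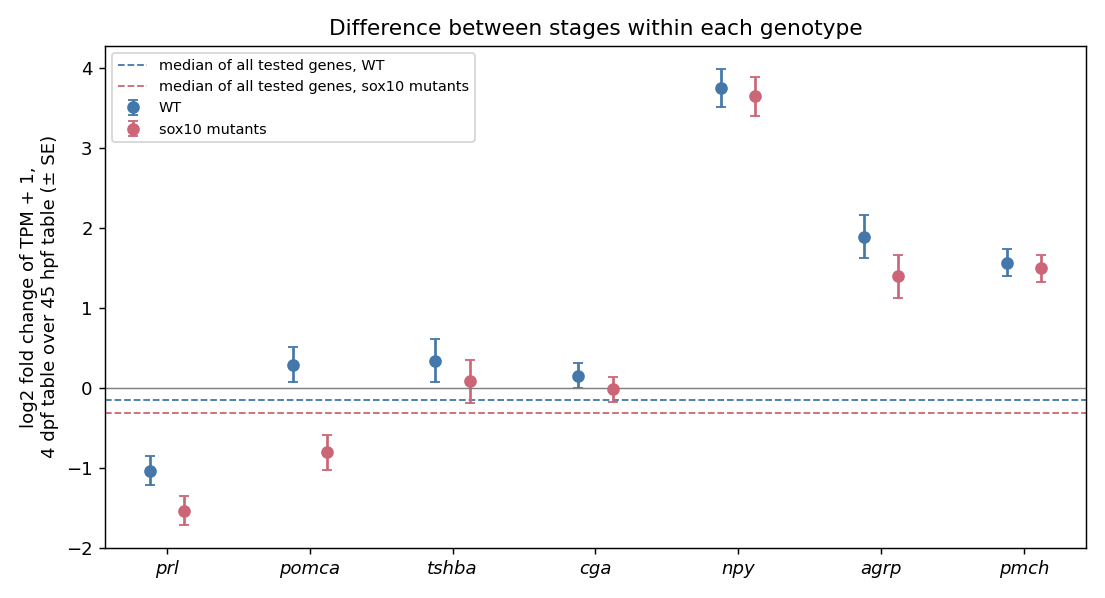
Log2 fold change of TPM + 1 from the 45 hpf to the 4 dpf table (± SE) in wild types (blue) and sox10 mutants (red) for the 7 hormone genes tested. Dashed lines mark the median of all tested genes in each genotype, at -0.15 and -0.31. npy, agrp and pmch rose and prl fell in both genotypes, and pomca lay at 0.29 in wild types and -0.81 in mutants.

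Whether the genotype difference changed with stage was tested as an interaction in the same fit. Of the 7 hormone genes 0 were called, against 0.432% of all tested genes (0.216% in each direction). Only pomca had an unadjusted P below 0.05, with an interaction of -1.09 ± 0.31 on the log2 scale (adjusted P = 0.140). The adjusted P of pomca ranged from 0.0690 to 0.316 over the alternatives. The next largest interaction was that of prl (-0.50 ± 0.25, adjusted P = 0.355), and the remaining genes had adjusted P values of at least 0.546. The fall of pomca with stage was thus called in mutants and not in wild types, but the difference between the genotypes did not pass the threshold.

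Paralogs gave a further view of the same hormones. The duplicate pomcb was at 2.43 to 3.35 TPM in wild types and 1.92 to 3.91 TPM in mutants at 45 hpf, and at 0.186 to 1.70 and 0.419 to 1.40 TPM at 4 dpf. It fell with stage in both genotypes, by 1.00 ± 0.30 in wild types (adjusted P = 0.0119) and by 1.14 ± 0.30 in mutants (adjusted P = 0.00608). The rise of a second melanin-concentrating hormone gene, pmchl, with stage was 1.80 ± 0.25 in wild types (adjusted P = 4.17e-05) and 0.65 ± 0.25 in mutants (adjusted P = 0.0362). The interaction of genotype and stage was not called for pmchl.

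pmchl was at 0.760, 1.47 and 1.36 TPM in wild types and 2.83, 2.51 and 2.13 TPM in mutants at 45 hpf. It was thus higher in every mutant, as were 2.13% of all listed genes, with a log2 difference of 0.68 ± 0.20 (adjusted P = 0.148). After rescaling pmchl was called higher (0.87, adjusted P = 0.0426), as were 25 of 16891 tested genes. The prolactin paralog prl2 moved against prl, from 0 to 0.125 TPM at 45 hpf to 0.218 to 0.952 TPM at 4 dpf in wild types, and from 0.152 to 0.243 to 0.566 to 1.83 TPM in mutants. prl2 was not tested in these fits. Of the gonadotropin beta subunits, lhb stayed between 0.544 and 1.56 TPM and fshb between 0.0156 and 0.462 TPM over the 12 libraries.

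Transcription factors of the pituitary and hypothalamus were not called between genotypes on the deposited scale. Of 26 such genes, chosen with earlier results of these data known, 25 were listed, 21 were tested at 45 hpf and 20 at 4 dpf, and 0 were called at either stage, where 0.557% and 20.3% of all tested genes were. After rescaling, the eye and hypothalamus factor gene rx3 was called higher in mutants at 45 hpf (1.14 ± 0.17, adjusted P = 0.0441), as were 25 of 16891 tested genes. On the deposited scale the median log2 difference of the list was -0.20 at 45 hpf and -0.10 at 4 dpf, beside -0.25 and -0.33 for all genes. With stage, 14 of 21 fell and 1 rose in wild types, where 36.6% of all tested genes fell and 26.8% rose, and 15 fell in mutants, where 40.8% did, among them the proneural factor neurod4 (-2.96 ± 0.16 in wild types, adjusted P = 1.21e-08). pou1f1, required in zebrafish for the cells that make growth hormone, prolactin and thyrotropin, was below the filter. It was listed at 0.136, 0.0564 and 0.0421 TPM in 4 dpf wild types and at 0 in all 3 mutants. Such values are too near 0 to show a difference, and 36.0% of all listed genes were lower in mutants without overlap at 4 dpf. At 45 hpf pou1f1 was not at 0 in every mutant library.

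Of 18 tested genes that process prohormones and fill secretory granules, 7 fell and 0 rose in mutants at 4 dpf on the deposited scale, where 18.8% of all tested genes fell and 1.56% rose. The other 11 were not called. The list had a median of -0.48 beside -0.33 for all genes, and 0 of its genes were called after rescaling. The convertase genes pcsk1 and pcsk2, whose enzymes cut pro-opiomelanocortin, showed the largest falls. pcsk1 was at 12.6, 4.39 and 19.7 TPM in wild types and 0.513, 2.47 and 0.391 TPM in mutants (log2 difference -2.57 ± 0.55, adjusted P = 0.0431). pcsk2 was at 10.1, 4.52 and 14.4 TPM in wild types and 0.349, 3.38 and 0.558 TPM in mutants (-2.22 ± 0.53, adjusted P = 0.0431). In both genes mutant replicate 2 was nearest to the wild types and was the sole mutant at 1 TPM or more, so they passed the filter through the wild types. The others called lower were pam, scg2b, scg3, cadpsa and furina, and at 45 hpf 0 of 18 were called. At 4 dpf cadpsa also passed the filter through the wild types, with 1 mutant at 1 TPM or more.

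Receptors for the hormones were mostly below the filter, and of 36 listed 6 were tested at 45 hpf and 8 at 4 dpf. The melanocortin receptor gene mc5ra was the sole gene called lower in mutants at 4 dpf, at 3.65, 1.64 and 3.96 TPM in wild types and 0.392, 1.37 and 0.478 TPM in mutants (-1.21 ± 0.31, adjusted P = 0.0436), and it was not called after rescaling. It passed the filter through the wild types, and 18.8% of all tested genes were called lower. With stage, the growth hormone receptor gene ghrb and the prolactin receptor gene prlra rose in both genotypes. ghrb rose by 2.11 ± 0.21 in wild types (adjusted P = 2.49e-06) and 1.63 ± 0.21 in mutants (adjusted P = 2.91e-05), and prlra by 2.64 ± 0.24 (adjusted P = 1.28e-06) and 2.45 ± 0.24 (adjusted P = 3.30e-06). The level of prl thus fell while that of prlra rose. Of 10 receptor genes tested with stage, 5 rose and 1 fell in each genotype. Of all tested genes 26.8% rose and 36.6% fell in wild types, and 21.2% and 40.8% in mutants. After rescaling, 6 of 9 rose and 0 fell in each genotype. Some of the 10 passed the filter through 4 dpf alone, such as mc5ra, mchr2a and sstr5, and mc5rb did through 45 hpf alone. The count is therefore not independent of the filter. The other prolactin receptor gene, prlrb, stayed below 1 TPM in all 12 libraries. mc1r, the melanocortin receptor of pigment cells, was at 0.804 to 1.31 TPM in wild types and 0.0240 to 0.0528 TPM in mutants at 45 hpf. Pigment cell markers fell in the same libraries, with 8 of 14 tested called lower at 45 hpf, where 0.499% of all tested genes were. Some of the 14, such as defbl1, apoda.1 and mlpha, passed the filter through the wild types alone, so their calls are no independent count. The part of pigment cells in the level of mc1r was not tested.

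Targets of the pituitary in other organs were read from 22 listed genes of the growth, adrenal-type and thyroid axes. The thyroid gland genes tg and slc5a5 stayed below 1 TPM in all 12 libraries and fell short of the filter. So did the thyrotropin receptor gene tshr. At 45 hpf 0 of 11 tested were called, and at 4 dpf 3 of 16 fell in mutants and 0 rose, with 0 called after rescaling. Of all tested genes 18.8% fell, so this share was that of the background. The 3 genes were igfbp1b (-1.74 ± 0.28, adjusted P = 0.0431), an insulin-like growth factor binding protein gene, the growth factor gene igf2b (-0.91 ± 0.16, adjusted P = 0.0431) and the cytokine signalling suppressor socs2 (-1.87 ± 0.43, adjusted P = 0.0431). At 4 dpf socs2 reached 1 TPM in 3 wild types and 1 mutant, so it passed the filter through the wild types. igfbp1b was at 35.6 to 67.7 TPM in wild types and 9.82 to 16.5 TPM in mutants at 4 dpf, and at no more than 0.356 TPM at 45 hpf. Its interaction of genotype and stage was called (-1.80 ± 0.34, adjusted P = 0.0489), as were 0.432% of all tested genes. The gene reached 1 TPM at 4 dpf alone, so this interaction largely restates its difference at 4 dpf and is no separate result.

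Most other tested genes of the hypothalamic neuropeptide list, which also holds enzyme genes such as hdc, rose with stage. Leaving out npy, agrp and pmch, 36 of the list were tested, of which 24 rose, 1 fell and 11 were not called in wild types, where 26.8% of all tested genes rose and 36.6% fell. Genes that passed the filter only at the stage where they were high, such as rln3a, are part of this count. The list had a median of 1.42 beside -0.15 for all genes. In mutants 24 rose and 2 fell, where 21.2% and 40.8% of all tested genes did, with a median of 1.21 beside -0.31. The largest rises in wild types were those of the relaxin gene rln3a (4.21 ± 0.17, adjusted P = 1.37e-09), vip (3.78 ± 0.18, adjusted P = 3.43e-09) and cart2 (3.38 ± 0.25, adjusted P = 1.56e-07), a satiety peptide gene. Releasing factors that act on the pituitary were among them, with crhb at 2.94 ± 0.23 (adjusted P = 2.91e-07) and trh at 2.30 ± 0.18 (adjusted P = 3.48e-07). The growth hormone releasing hormone gene ghrh fell in both genotypes, by 1.16 ± 0.19 in wild types (adjusted P = 0.000184) and by 0.98 ± 0.19 in mutants (adjusted P = 0.000766). It reached 1 TPM at 45 hpf alone in both genotypes. It thus passed the filter through the stage at which it was high, and its calls are no independent support.

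**Figure D5:**
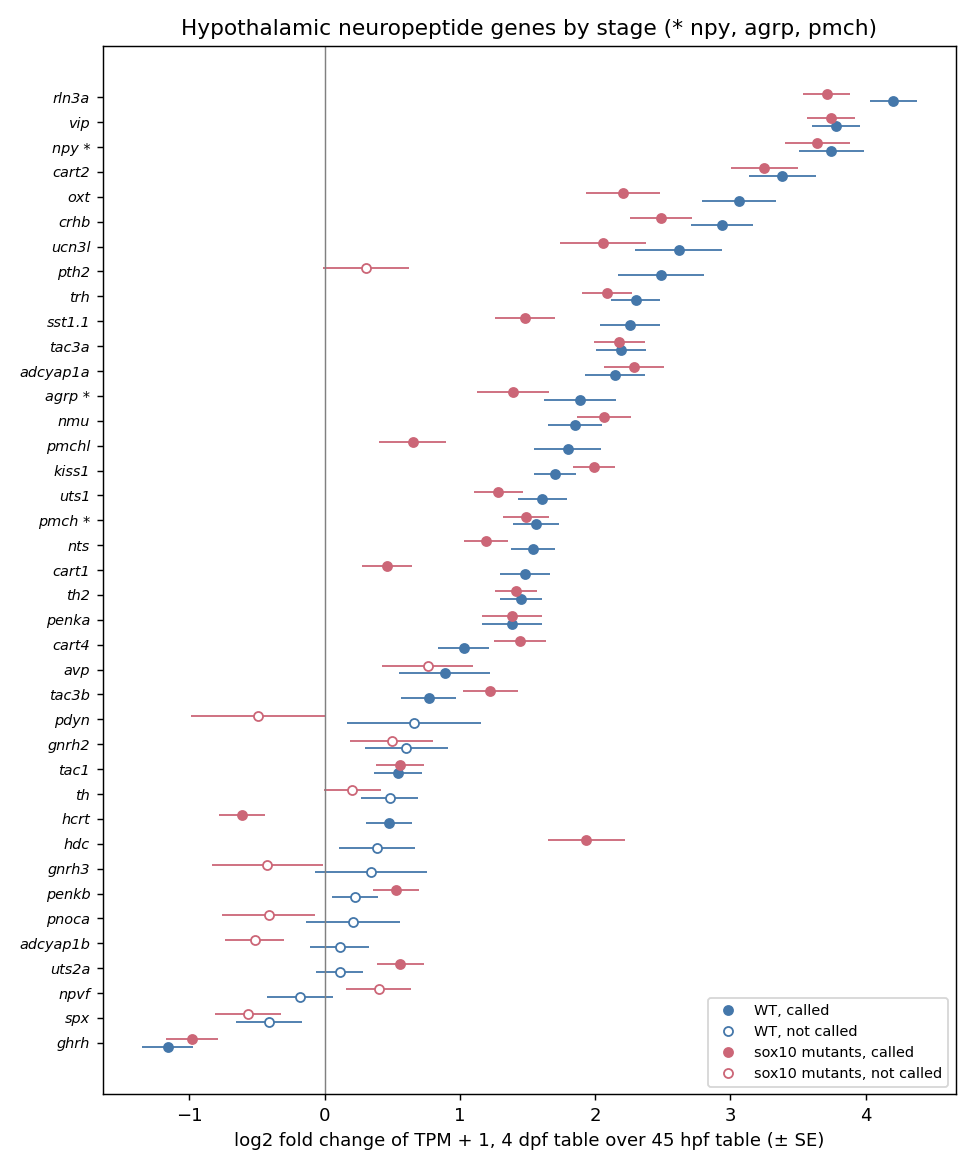
Log2 fold change of TPM + 1 from the 45 hpf to the 4 dpf table (± SE) for the 39 tested genes of the hypothalamic neuropeptide list in wild types (blue) and sox10 mutants (red), ordered by the wild-type value. The list also holds enzyme genes such as hdc. Filled points were called by limma and open points were not, and asterisks mark npy, agrp and pmch. Most genes lie right of 0 in both genotypes, from ghrh at -1.16 to rln3a at 4.21 in wild types.

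Between genotypes, 0 of 30 genes of this list, without npy, agrp and pmch, were called at 45 hpf (1 after rescaling, pmchl). Their median was 0.049 beside -0.25 for all genes. At 4 dpf 4 of 35 were lower and 1 higher, where 18.8% of all tested genes were lower and 1.56% higher, and 0 were called after rescaling. Those lower were hcrt, encoding hypocretin (-0.92 ± 0.20, adjusted P = 0.0431), gnrh3, pnoca and pth2. The gene higher was hdc, which encodes no neuropeptide but the enzyme that makes histamine (1.75 ± 0.34, adjusted P = 0.0431). hcrt was at 2.93, 1.68 and 2.44 TPM in wild types and 0.889, 0.849 and 0.543 TPM in mutants, and passed the filter through the wild types alone. At 4 dpf pnoca reached 1 TPM in 3 wild types and 1 mutant, and gnrh3 and pth2 in 3 wild types and 2 mutants. hdc was at 6.12, 8.46 and 4.44 TPM in wild types and 25.3, 14.3 and 34.1 TPM in mutants. At 4 dpf hcrt was lower in mutants without overlap, as were 36.0% of listed genes, and hdc was higher without overlap, as were 5.14%. The genotypes overlapped for npy, agrp and pmch.

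The genes most like each hormone gene over the 12 libraries were found by Pearson correlation of log2(TPM + 1), given as a description because the points share libraries, stages and genotypes. The pattern of npy was most like those of oaz2b, matn1 and cacng7b (r = 0.99 for each), and that of pmch like matn1, the cone opsin gene opn1sw1 and plppr3b (r = 0.99 for each). For agrp the nearest were cblc, slc3a2a and fxyd2 (r = 0.98 for each), all with higher levels at 4 dpf. prl was most like si:dkey-42i9.4 (r = 0.98), six6a and her4.5 (r = 0.97 for both), whose levels were lower at 4 dpf.

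Nearest patterns of the other genes were less close. tshba was most like top1mt (r = 0.92), smtnl1 (r = 0.91) and si:rp71-36a1.1 (r = 0.90), all lower on average in mutants than in wild types at both stages. cga was most like kdm4c, trim44 (r = 0.88 for both) and phactr3b (r = 0.87). For pomca no gene came above prdm8a (r = 0.75), followed by htr2aa (r = 0.74) and mat2al (r = 0.72), and each of these had a higher mean in mutants at 45 hpf and a lower mean in mutants at 4 dpf.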

How the data were processed

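Whole-body RNA was poly-A selected for stranded libraries. According to the submitters' processing notes, reads were trimmed with Trimmomatic 0.39 and quantified with kallisto against GRCz11, and the authors deposited TPM per gene and library. TPM keep no depth, so no counting interval is given. All 18 libraries carry a genotype, stage and replicate label, but the 4 and 7 dpf tables are identical, so 12 were analysed. The 315 lines repeating a gene were dropped. limma 3.58.1 (R 4.3.3, lmFit and eBayes with trend) was run on log2(TPM + 1) for genes that reached 1 TPM in 3 or more libraries, in 6 libraries per genotype comparison and in 12 for stage and interaction. The 6 library fit was tried on data simulated from the 4 dpf table. Changes were simulated only in genes well above the filter. Recovery was therefore not tested for genes as low as most hormone genes, nor in the 12 library fits. P-values were adjusted over all tested genes. Single genes under the filter were compared by two-sided exact permutation tests. Replicates are separate pools. The hormone genes, lists and tests were chosen with earlier results of these data known. Genes named beyond the hormone genes were list genes called between genotypes, receptors of the hormones, the most abundant genes of a list and the 3 nearest patterns, and others (paralogs, pou1f1, ghrh, rln3a, vip, cart2, crhb and trh) were added after their values were seen. A planned description of promoter motifs was not run, and neither sequences nor coordinates are given. Python 3.11.15, pandas 2.3.3 and scipy 1.17.1 were used for other steps.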

Additional observations from a re-analysis of the deposited data

How the results depend on the processing

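The calls of the hormone genes were recomputed under each alternative. With a pseudocount of 0.1, no filter or both together (the last chosen after seeing the data), rescaling or the replicate block, 0 were called between genotypes. The contrast of the 12 library fit called 1 at 4 dpf, tshba. Under these alternatives stage calls stayed at 4 in wild types, and in mutants at 5 except for 6 with no filter (3 lower, 3 higher) and 7 with a pseudocount of 0.1 and no filter (3 lower, 4 higher). A filter at a mean of 5 TPM left npy as the 1 gene tested and called in each. Leaving out each library in turn gave 0 to 2 called at 45 hpf, 0 to 0 at 4 dpf, 4 to 5 for stage in wild types, 5 to 5 in mutants and 0 to 0 for the interaction. No hormone gene that was called reversed.

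Counts over all genes moved far more, and the cause was not tested. At 45 hpf 95 genes were called, against 31 with no filter, 44 at a mean of 5 TPM, 44 with a pseudocount of 0.1 and no filter, and 35 to 5269 leaving out each library. At 4 dpf 3518 were called, against 53 with a pseudocount of 0.1, 7 with no filter, 18 with both, 1487 at a mean of 5 TPM, 41 after rescaling (27 lower, 14 higher), 6434 in the 12 library contrast and 4 to 6169 leaving out each library. A mean of 5 TPM left 7484 calls in place of 12033 for stage in wild types and 7660 in place of 11774 in mutants, and leaving out each library gave 10724 to 12365 and 10488 to 11944. The split for stage in mutants was 7752 lower to 4022 higher, and 6567 to 5985 after rescaling. The interaction gave 82, against 26 with a pseudocount of 0.1, 46 with no filter, 25 with both, 53 at a mean of 5 TPM, 153 after rescaling (59 lower, 94 higher) and 22 to 1106 leaving out each library.

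The deviations of same-numbered libraries from their group means correlated at -0.31 to -0.0099 at 45 hpf and -0.61 to -0.15 at 4 dpf. With 3 libraries per group, these correlations cannot settle whether replicate numbers pair the samples. With the replicate block, 737 genes were called at 45 hpf, 2 at 4 dpf and 33 in the interaction, and the calls of hormone genes did not change. The depth behind the TPM is unknown, and most pituitary genes lay near or below 1 TPM, where 3 libraries per group limit what can be shown.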
